A study of Mus musculus with 6 samples.

Results

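The genes described here are the protein-coding genes that occupy a very long stretch of the mouse genome. A gene was taken where gene end minus gene start in the deposited table was at least 300000 bases, the mean normalized count over the 6 libraries was at least 10, and the name did not start with Col. This gave 265 genes of the 16208 protein-coding genes and 25251 genes of all kinds in the table. Of 444 protein-coding genes of that span, 179 fell under the mean, and the name rule removed 0. They were thus selected on their coordinates and on 1 measured value, the mean over both groups. The rule itself does not use the drug comparison, but it was chosen with earlier results of these data known. A gene detected in 1 group only can also pass through that group.

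The libraries are bulk RNA-seq of tumours grown under the skin of BALB/c mice from CT26, a mouse colon carcinoma line labelled wild type. The design text of the series mentions duplicates, but 3 libraries are labelled for each group and all were used. The 3 control libraries came from tumours of mice given solvent. The 3 treated libraries came from tumours of mice given irinotecan (CPT-11) into the abdominal cavity at 25 mg/kg, repeated every 4 days. All mice were randomised at a tumour volume of 100 mm3. A bulk tumour also holds host blood vessels, fibroblasts and immune cells, so for every gene below fewer cells of a type and less RNA per cell cannot be told apart. No label ties a library to its own mouse, and p-values therefore cover only the variation among these libraries, which may be technical. Where a treated or irinotecan tumour is named below, a library is meant. The labels used here do not say how long after a dose the tumours were taken. Of 9 epithelial markers, Epcam had 0 reads in 5 of 6 libraries, while Krt8 ranged from 50.5 to 80.4 normalized counts in controls and from 37.0 to 149 with irinotecan.

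Topoisomerase I nicks and reseals DNA, and so relieves the supercoils that build up around a moving RNA polymerase. Irinotecan is converted in the body to SN-38, which holds topoisomerase I on nicked DNA. In cultured neurons and other cells, topoisomerase I inhibitors are known to lower the transcripts of very long genes more than those of short ones. The question put to these tumours was whether irinotecan goes with lower expression of long genes, compared with shorter genes of like abundance and like transcript length. Steady-state RNA in a tumour taken during repeated dosing measures transcription and RNA decay together.

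The 265 long-span genes covered 300532 to 2257271 bases each, with a median of 410773. Their mature transcripts were also longer. The deposited gene length, which equalled the union of exons for 255 of the 265 in the GENCODE M21 annotation, had a median of 10413 bases, against 4357 for the 12208 shorter-span protein-coding genes with a mean of at least 10. Exons thus made up a median of 2.22% of the span of a long gene and 19.2% of that of a shorter one. Long-span genes had a median of 18 exons against 9, a median transcript GC content of 48.7% against 50.6%, and a median mean count of 274.3 against 493.9. Another gene of the table lay inside the span of 167 of them (63.0%, against 19.6% of shorter-span genes), and without a stated strand setting reads of such overlapping genes cannot be told apart. The genes encode axon guidance and adhesion proteins, cytoskeletal scaffolds, signalling enzymes, ion channels and transcription regulators, many best known from neurons and muscle.

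Promoter sequences are shown for 4 genes, the 2 with the smallest limma p in each direction among long-span genes whose groups did not overlap and that have a RefSeq promoter entry. They show how unlike each other the starts of the genes that differed most are. Each is the stretch upstream of the start on the gene's strand, 5' to 3', from RefSeq with build GRCm38.p6, and capitals mark CG dinucleotides. Exoc4 lies at chr6:33248878-33249084 (plus strand), Sh3rf3 at chr10:58813109-58813358 (plus), Ptprm at chr17:67354460-67354709 (minus) and Mid1 at chrX:169684949-169685198 (plus).
Exoc4: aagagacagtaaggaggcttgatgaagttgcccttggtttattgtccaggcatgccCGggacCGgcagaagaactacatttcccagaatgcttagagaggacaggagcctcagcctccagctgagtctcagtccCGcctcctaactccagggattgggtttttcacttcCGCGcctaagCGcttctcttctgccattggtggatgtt
Sh3rf3: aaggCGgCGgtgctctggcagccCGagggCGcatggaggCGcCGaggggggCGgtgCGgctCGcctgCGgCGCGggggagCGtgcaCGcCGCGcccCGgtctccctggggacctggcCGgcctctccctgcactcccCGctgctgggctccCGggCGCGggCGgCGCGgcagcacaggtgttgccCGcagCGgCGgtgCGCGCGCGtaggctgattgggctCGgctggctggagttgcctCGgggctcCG
Ptprm: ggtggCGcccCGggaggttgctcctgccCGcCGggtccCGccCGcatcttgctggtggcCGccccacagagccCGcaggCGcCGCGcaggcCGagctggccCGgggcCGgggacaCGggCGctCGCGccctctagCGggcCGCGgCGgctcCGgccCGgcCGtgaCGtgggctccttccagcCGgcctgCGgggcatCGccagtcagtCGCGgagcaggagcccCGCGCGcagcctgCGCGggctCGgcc
Mid1: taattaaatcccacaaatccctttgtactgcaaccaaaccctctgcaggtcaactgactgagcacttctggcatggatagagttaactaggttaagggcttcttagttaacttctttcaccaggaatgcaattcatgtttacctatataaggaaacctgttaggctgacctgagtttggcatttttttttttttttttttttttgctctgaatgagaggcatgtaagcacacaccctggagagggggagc
Ptprm, which was lower with irinotecan, and Sh3rf3, which was higher, both have dense CG starts, with 37 and 35 CG dinucleotides in 250 bases and 81.2% and 79.2% GC. Mid1, also lower, has 0 CG dinucleotides in 250 bases and 40.8% GC. Exoc4, also higher, has 6 in the 207 bases shown and 53.1% GC. Over the 205 long-span genes with an entry, the 250 bases upstream held a median of 16 CG dinucleotides (interquartile range 7 to 26), and 9584 shorter-span genes also had a median of 16 (9 to 22). The letters TATAAA, searched on both strands, were in 14 of the 205 windows (6.83%) and in 6.58% of the shorter-span ones, and in none of the 4 shown.

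Recovered reads per library ranged from 13940650 to 15656894. Irinotecan replicate 1 stood apart. Across the 14639 genes tested, its log2 values correlated with other libraries at 0.932 to 0.941, against 0.975 to 0.985 among the other 5. Its difference from the control mean ran with transcript GC content (Spearman rank correlation -0.34 across 12457 genes, which are not independent). A GC trend was not particular to it, as control replicates 1 and 3 stood at 0.30 and -0.30. The main results for the long-span genes as a set are given with and without irinotecan replicate 1 because of its lower correlation with the other libraries. Several values of gene lists and single genes are given with all 6 libraries only. Long-span genes held 1.334%, 1.358% and 1.286% of protein-coding counts in control replicates 1, 2 and 3, 1.817% in irinotecan replicate 1, and 1.301% and 1.364% in irinotecan replicates 2 and 3. Irinotecan replicate 1 lay far above the controls, replicate 3 just above the highest of them, and replicate 2 within their range. Top1, which encodes the drug's target and spans 76.9 kb, had 2178, 2385 and 2354 normalized counts in the controls and 2059, 2393 and 2575 with irinotecan (log2 fold change 0.02, SE 0.13, limma adjusted p = 0.969), and its groups overlapped.

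Long-span genes were not lower as a group in the irinotecan tumours. Their median log2 fold change, irinotecan against control on log2(normalized count + 1) and used for every fold change below, was 0.06 (interquartile range -0.18 to 0.27), and that of shorter-span genes was -0.02. In single libraries, the median difference of the 265 genes from the control mean was -0.00026, 0.06 and -0.05 in control replicates 1, 2 and 3, and 0.31, -0.05 and -0.03 in irinotecan replicates 1, 2 and 3. Irinotecan replicate 1 was thus high, and the other irinotecan libraries lay at the level of control replicate 3. The mean of these medians was 0.00273 ± 0.0565 (SD, n = 3) in controls and 0.0733 ± 0.204 (SD, n = 3) with irinotecan, a difference smaller than the spread. A negative fold change was seen in 120 of 265 long-span genes (45.3%) and in 53.1% of shorter-span genes.

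Set against genes of like abundance and transcript length, the median difference was close to 0. For each long-span gene, the median fold change of shorter-span protein-coding genes in the same bin of mean count and gene length was taken off. All 265 genes had a bin with at least 10 comparison genes. The median remainder was -0.01, and 137 of the 265 genes (51.7%) lay under their bin. By library the remainder was 0.03, 0.01 and -0.06 in control replicates and 0.11, -0.05 and -0.07 in treated ones. The mean of these library values was -0.00535 ± 0.0447 (SD, n = 3) for controls and -0.00431 ± 0.101 (SD, n = 3) for irinotecan. Adding GC content to the bins, which left 238 genes with enough comparison genes, gave 0.00915, and irinotecan replicates 1, 2 and 3 then stood at 0.10, -0.03 and -0.08.

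Span and expression were related most in irinotecan replicate 1. Its median difference from the control mean climbed from -0.48 in the 2984 genes under 10 kb to 0.33 in the 176 genes of 300 to 500 kb, and was 0.30 in the 89 genes of at least 500 kb. Within bins of mean count and gene length those values shrank to -0.17, 0.12 and 0.09. Irinotecan replicates 2 and 3 went the other way by a small amount: after binning they stood at 0.00710 and 0.02 under 10 kb and at -0.06 and -0.11 from 500 kb upward. Control replicate 3 was at -0.06 in that longest class, and control replicate 1 at 0.05. Across the 12473 protein-coding genes the fold change and the span had a Spearman rank correlation of 0.25 with all libraries and -0.05 without irinotecan replicate 1. Within the 265 long-span genes it was 0.0063 and -0.03, so among them fold change hardly ran with span. Without irinotecan replicate 1 the median fold change was -0.04 at 300 to 500 kb and -0.05 from 500 kb upward. These are descriptions over genes of the same libraries.

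**Figure D1:**
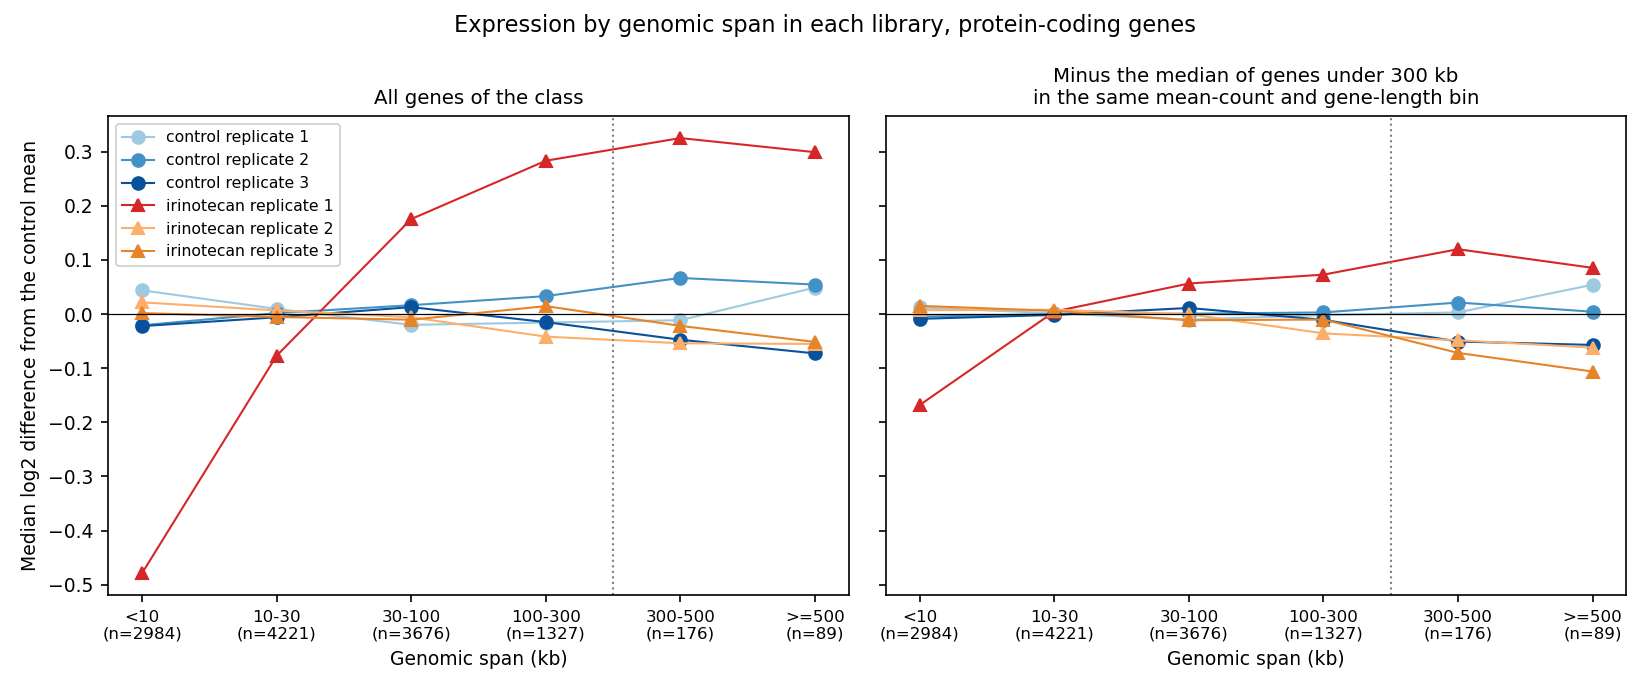
Median log2 difference from the control mean (vertical axis) of protein-coding genes in 6 classes of genomic span (horizontal axis, kb, with the number of genes), with 1 line per library, before (left) and after (right) taking off the median of shorter-span genes in the same bin of mean count and gene length. The dotted line marks 300 kb. Irinotecan replicate 1 runs from -0.48 to 0.30 on the left and from -0.17 to 0.09 on the right, and in the longest class on the right irinotecan replicates 2 and 3 lie at -0.06 and -0.11.

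No long-span gene passed limma's threshold of an adjusted p under 0.05, and neither did any of the 14639 genes tested (0%). At an unadjusted limma p under 0.05, 7 long-span genes were higher (2.64%, against 2.68% of all genes tested) and 11 were lower (4.15%, against 3.08%). With quantile normalization the same counts were 15 higher and 7 lower, so the balance of directions depended on the scaling. All 3 irinotecan libraries lay above all 3 controls for 24 long-span genes (9.06%, against 6.68% of all genes) and below for 20 (7.55%, against 7.89%). Neither share was far from the background. From recovered whole reads, edgeR and limma-voom called 0 genes in all (0%) and DESeq2 called 52 (0.355%), of which 0 were long-span. The authors' deposited table lists an adjusted p under 0.05 for 47 genes (0.186%), and 0 of them were long-span.

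Without irinotecan replicate 1, long-span genes leaned lower. The median fold change was -0.04, against -0.01 for shorter-span genes, and 157 of 265 were negative (59.2%, against 51.2%). After binning, the median was -0.05 and 160 genes (60.4%) lay under their bin. The same held with GC content in the bins (-0.05). At an unadjusted limma p under 0.05, 28 long-span genes were lower (10.6%, against 5.15% of all genes tested) and 8 were higher (3.02%, against 4.34%). Both remaining irinotecan libraries lay below all 3 controls for 55 long-span genes (20.8%, against 13.7%) and above for 27 (10.2%, against 12.8%). Limma still called 0 long-span genes, and 2 genes in all (0.0137%). Over all 6 libraries left out in turn, lower long-span genes at that p numbered 4 to 28 and higher ones 5 to 18. Control replicate 3 alone stood at -0.06 in the bins without GC content, a shift of the same size. With GC content in the bins the controls stood at 0.02, 0.02 and -0.02, and irinotecan replicates 2 and 3 at -0.03 and -0.08. Each control is measured from a mean that includes it, which narrows its distance from 0. Control and treated values are thus not fully alike as measures.

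The counts at an unadjusted p without irinotecan replicate 1, and those by class of span or abundance, were not planned. In those 5 libraries the share of lower genes was greater in the longer classes. It was 5.50% under 10 kb, 4.50% at 10 to 30 kb, 5.09% at 30 to 100 kb, 7.61% at 100 to 300 kb, 9.66% at 300 to 500 kb and 12.4% from 500 kb upward, the last being 11 of 89 genes. The share of higher genes was 5.29% in the shortest class and 3.37% in the longest. With all 6 libraries, 4.76% of the shortest and 5.62% of the longest genes were lower, and the classes from 10 to 100 kb were at 2.44% and 2.39%.

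**Figure D2:**
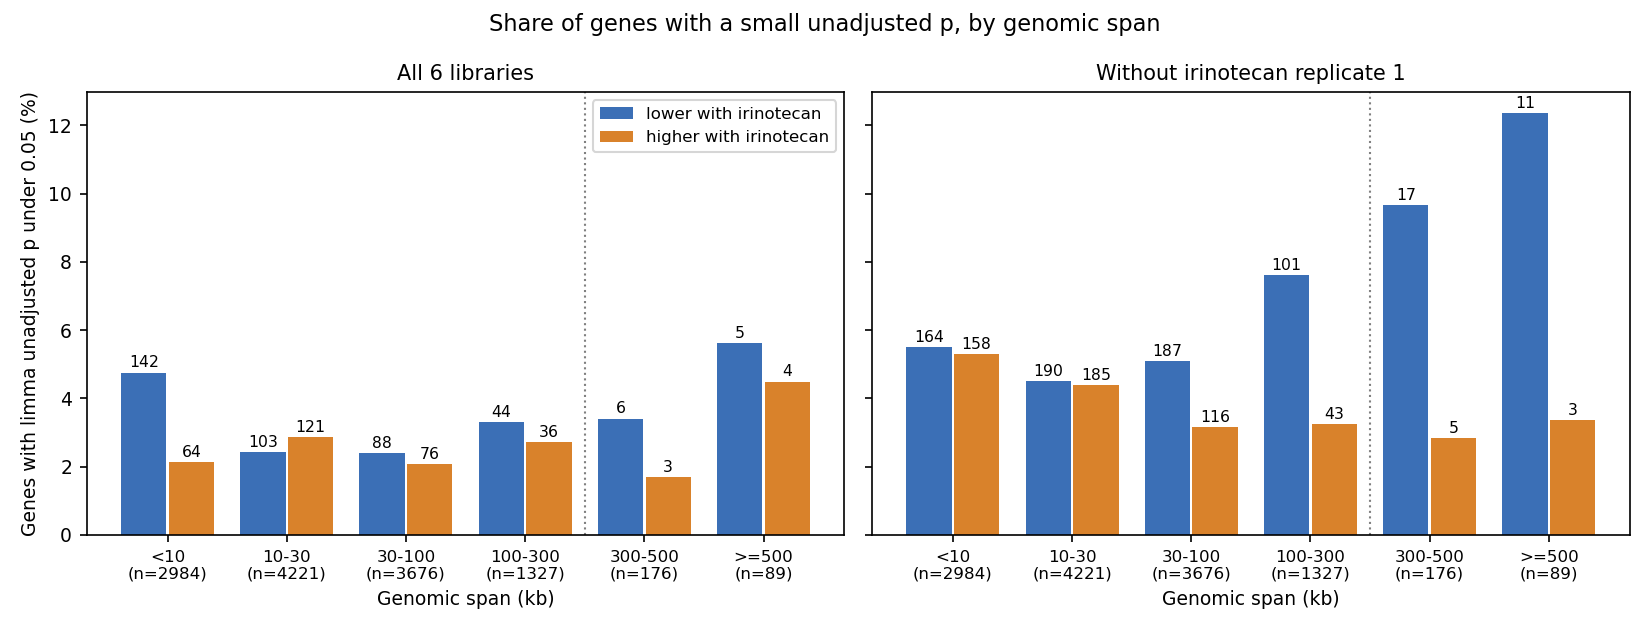
Percent of protein-coding genes with a limma unadjusted p under 0.05 (vertical axis, bars from 0) by class of genomic span (horizontal axis, kb, with the number of genes), lower (blue) and higher (orange) with irinotecan, with the number of genes above each bar. The left panel uses 6 libraries and the right leaves out irinotecan replicate 1, where the lower bars go from 5.50% in the shortest class to 12.4% in the longest and the higher bars from 5.29% to 3.37%.

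The lower genes were mostly of low or middle abundance. In the 123 long-span genes with a mean count of 100 to 1000, 15 were lower at an unadjusted limma p under 0.05 without irinotecan replicate 1 (12.2%, against 4.92% of shorter-span genes of that abundance). Among the 83 with a mean of 10 to 100 there were 10 (12.0%, against 5.46%), and among the 59 with at least 1000 there were 3 (5.08%, against 5.70%). The most abundant long-span genes were no more often lower than shorter genes of that abundance. With all libraries those 59 genes had a median fold change of 0.20, and irinotecan replicate 1 alone stood at 0.53 for them.

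Among the individual genes that were higher in every irinotecan library, Exoc4 had the smallest p. It encodes a subunit of the exocyst, the complex that tethers secretory vesicles to the plasma membrane, and spans 725 kb at chr6:33249085-33973979 (GRCm38). It had 892, 796 and 749 normalized counts in the controls and 1939.6, 1106 and 1217 with irinotecan. The lowest irinotecan library lay above the highest control, and irinotecan replicate 1 was the highest of all. Means were 812 ± 73.1 (SD, n = 3) and 1421 ± 453 (SD, n = 3), a log2 fold change of 0.77 (SE 0.22), with a limma p of 0.00700 and an adjusted p of 0.743. Taking off its bin left 0.55. Without irinotecan replicate 1 the fold change was 0.52 (limma adjusted p = 0.138), and DESeq2 on those 5 libraries gave an adjusted p of 0.0240, against 0.151 for DESeq2 and 0.770 for edgeR with all libraries. Its span holds 3 other genes of the table.

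Csmd3, a large membrane protein with CUB and sushi domains, spans 1211 kb and had the largest positive fold change of the long-span genes. Controls had 20.6, 10.5 and 5.81 normalized counts and irinotecan tumours 30.8, 137 and 23.3. Replicate 2 of the irinotecan group carried most of the difference. The log2 fold change was 1.99 (SE 0.72, limma adjusted p = 0.743), and it was 1.23 without that library. DESeq2 without irinotecan replicate 1 gave an adjusted p of 0.00604 for Csmd3, against 0.204 with all libraries.

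Sh3rf3, a ubiquitin ligase with SH3 domains that acts as a signalling scaffold, had 99.1, 83.6 and 64.9 normalized counts in controls and 138, 118 and 129 with irinotecan. Its fold change was 0.65 (SE 0.24, limma adjusted p = 0.743) and was as large without irinotecan replicate 1, at 0.60. Rad51b, which acts in repair of DNA breaks by homologous recombination, had 57.96, 53.3 and 26.1 against 138, 64.5 and 89.2. Nfia, a nuclear factor I transcription factor, had 231, 206 and 159.8 against 342, 283 and 245. For both, irinotecan replicate 1 was the highest library, and their fold changes went from 1.08 to 0.80 and from 0.55 to 0.42 without it. Camkmt, which methylates calmodulin, had 76.7, 75.3 and 90.1 against 108, 105 and 133, with a fold change of 0.51 that became 0.55. Cadm2, an immunoglobulin-type adhesion molecule, had 15.9, 12.5 and 9.68 against 69.8, 26.0 and 18.2, so its fold change of 1.30 rested largely on irinotecan replicate 1 (0.76 without it). Ccdc171, a coiled-coil protein, had 14.96, 27.2 and 28.1 against 40.0, 43.3 and 44.6. The limma adjusted p was 0.743 for each of these genes.

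Ptprm was the clearest of the lower genes and had the smallest limma p of all long-span genes. It encodes a receptor-type tyrosine phosphatase that also binds its own kind between cells, and spans 688 kb at chr17:66666947-67354457. Controls had 153, 112 and 120.1 normalized counts and irinotecan tumours had 71.9, 58.8 and 60.8. The highest irinotecan library was well under the lowest control, and irinotecan replicate 1 lay with the other treated tumours. Means were 128 ± 21.9 (SD, n = 3) and 63.8 ± 7.06 (SD, n = 3). The log2 fold change was -0.99 (SE 0.23) with a limma p of 0.00266 and an adjusted p of 0.743. Its fold change stayed between -1.11 and -0.86 over 18 alternatives. It passed the threshold with estimated library weights and, without irinotecan replicate 1, in DESeq2 (adjusted p = 0.0231, against 0.0814 with all libraries) but not in limma (0.1197).

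Several other lower genes act on small GTPases, the switches that drive actin and cell movement. Elmo1, the partner of Dock proteins in Rac activation and in engulfment of dying cells, had 296, 249 and 260.5 normalized counts in controls and 208, 184 and 186 with irinotecan. Prex2, a Rac exchange factor, had 110.3, 123 and 135 against 67.8, 79.9 and 90.2. Vav3, an exchange factor used downstream of immune and growth factor receptors, had 122, 141 and 140.4 against 92.4, 98.2 and 99.3. In all 3 genes the groups were apart and irinotecan replicate 1 was no outlier. Their log2 fold changes were -0.47 (SE 0.17), -0.63 (SE 0.22) and -0.47 (SE 0.20), and without that library -0.53, -0.52 and -0.44 (limma adjusted p = 0.743 for each with all libraries).

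Mid1, a microtubule-bound ubiquitin ligase on the X chromosome, had 436, 330.4 and 409.6 normalized counts in controls and 254, 282 and 263 with irinotecan (log2 fold change -0.55, SE 0.17, limma adjusted p = 0.743). Frmd4b, a scaffold with a FERM domain, had 233, 283 and 234 against 99.6, 191 and 170.3, and irinotecan replicate 1 was the lowest. Its fold change was -0.75, and -0.46 without that library. Ank3, or ankyrin G, which anchors membrane proteins to the spectrin skeleton, was scarce at 28.0, 26.1 and 18.4 against 12.3, 11.6 and 4.05. Slc2a13, a carrier of myo-inositol, had 41.1, 42.9 and 25.2 against 10.3, 23.1 and 19.3. The fold changes of Ank3 and Slc2a13 were -1.39 and -1.05 with SEs of 0.53 and 0.44.

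**Figure D3:**
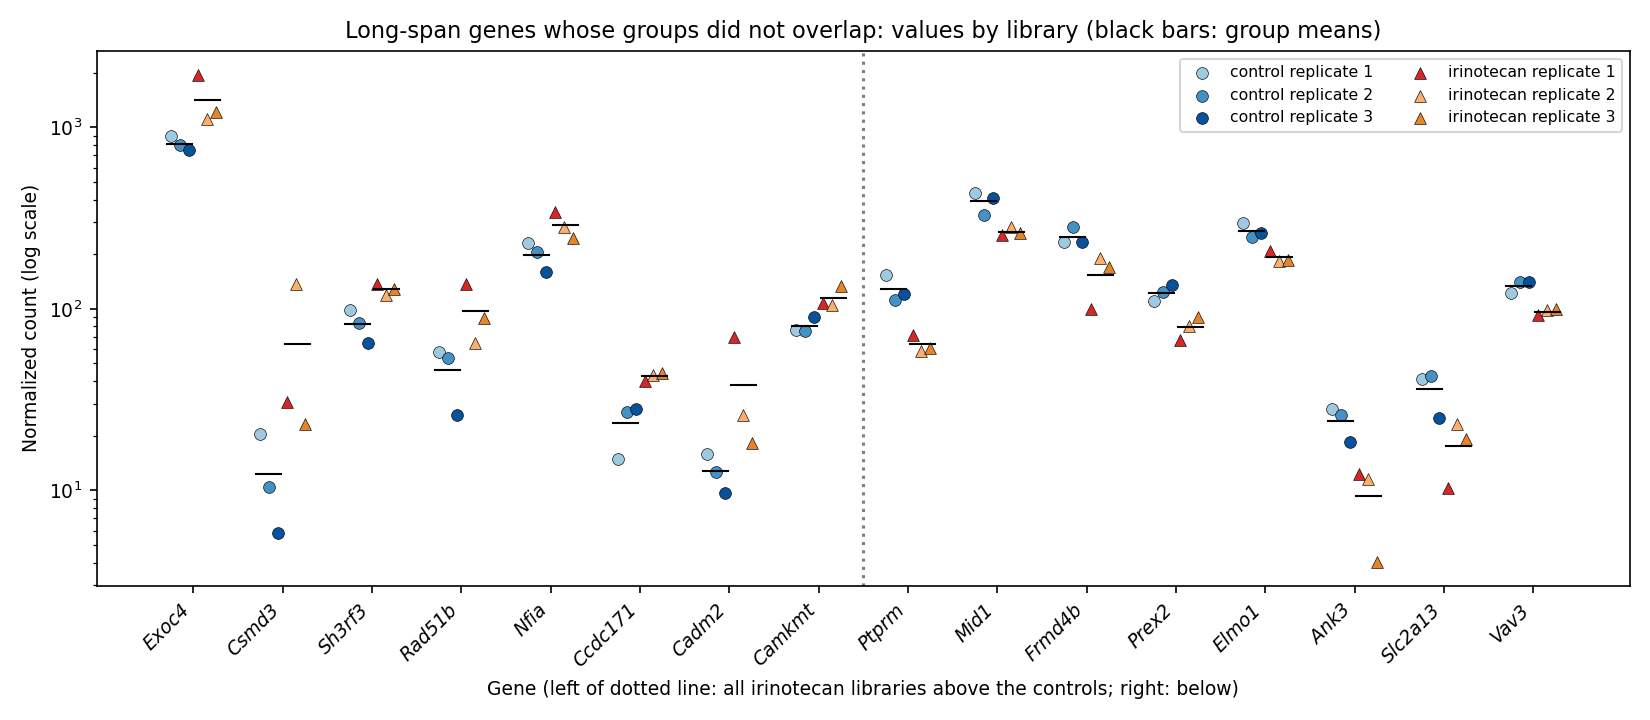
Normalized counts (vertical axis, log scale) in each of the 6 libraries for the 8 long-span genes with the smallest limma p among those higher in every irinotecan library (left of the dotted line) and the 8 among those lower (right); circles are controls, triangles irinotecan tumours and black bars group means. Exoc4 goes from 812 to 1421 and Ptprm from 128 to 63.8 in mean, and red triangles mark irinotecan replicate 1, the highest of 6 libraries for Exoc4 and Cadm2.

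Summed counts of endothelial, macrophage and neutrophil markers were lower beside these genes, and those of the other lists overlapped. All 6 endothelial markers tested had a negative fold change, and their summed normalized counts were 2189 to 2515 in controls and 1394 to 1862 with irinotecan. The summed counts of 5 macrophage markers were 8937 to 10396 against 4777 to 8150.2, and those of 4 neutrophil markers 276 to 457 against 133 to 203. No marker of the endothelial or macrophage lists was at 0 in any library. The sums of the epithelial, fibroblast, T cell, nerve and glia, skeletal muscle and adipocyte lists overlapped between groups. Single markers did not all follow their list. Kdr, Vwf, C1qa, Cd68, S100a8, S100a9 and Retnlg overlapped between groups. The fibroblast markers Acta2 (175 to 188 in controls, 45.2 to 122 with irinotecan) and Lum (146 to 204, 92.4 to 143) were lower in every irinotecan library. The other fibroblast markers overlapped. Of the markers tested, 4 of 5 for T cells, 5 of 5 for skeletal muscle and 2 of 2 for nerve and glia had a positive fold change. For fibroblasts 3 of 7 were positive, and the 1 adipocyte marker tested was negative. The part of host cell markers in the lower levels of Ptprm, Elmo1, Prex2 and Vav3 was not tested.

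In Tenm4 the treated tumours disagreed. It was picked out after its values were seen. This teneurin, a transmembrane protein of cell recognition, spans 740 kb at chr7:96171246-96911093. It had 951, 591 and 722 normalized counts in controls and 1623, 429.6 and 332 with irinotecan. Irinotecan replicate 1 was the highest of all libraries and replicates 2 and 3 were the lowest. With all libraries the log2 fold change was -0.27 (SE 0.52, limma adjusted p = 0.877), and DESeq2 and edgeR gave adjusted p-values of 0.982 and 0.966. Without that library it was -0.97 (limma adjusted p = 0.0968, DESeq2 adjusted p = 0.000407). DESeq2 on those 5 libraries called 164 genes (1.12%), of which 4 were long-span: Tenm4 and Ptprm lower, Exoc4 and Csmd3 higher.

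Counted for each library on its own, irinotecan replicate 1 was the highest of the 6 libraries for 142 long-span genes (53.6%, against 33.8% of shorter-span genes) and the lowest for 37 (14.0%, against 38.1%). Irinotecan replicate 2 was the lowest for 56 (21.1%, against 9.83%) and irinotecan replicate 3 for 41 (15.5%, against 14.7%). Control replicate 3, from the solvent group, was the lowest for 71 (26.8%, against 14.0%), more often than any irinotecan library.

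By role, the kinases, phosphatases and second messenger proteins were most often higher, with 0 genes called in any list. The small GTPase, cytoskeletal, adhesion and matrix lists held more negative than positive genes. Of all 265 long-span genes, 45.3% were negative and 54.7% positive, against 52.9% and 47.1% of all protein-coding genes tested. Whether any list differed from these shares was not tested. Of 22 long-span genes in the list of kinases, phosphatases and second messenger proteins, 17 had a positive fold change (median 0.20). All 3 irinotecan libraries were above the controls for 4 and below for 1 (all genes tested, 6.68% and 7.89%). The 4 higher genes were Adk, Camkmt, Itpr2 and Exoc4, the last being an exocyst subunit that the list holds by mistake. The list is broad, and not all of its genes are enzymes. Without irinotecan replicate 1 the list had a median of -0.01. Plcb4, a phospholipase C that makes the second messengers of Gq-coupled receptors, had 1455, 1676 and 1479.6 normalized counts in controls and 1596, 1745 and 1827 with irinotecan, and its groups overlapped. Mast4, a microtubule-associated kinase, had 1760.4, 1938 and 1723 against 2698, 1719 and 1847. Its log2 fold change was 0.18, and -0.02 without irinotecan replicate 1.

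Among 22 regulators of small GTPases, 13 were negative (median -0.09, and also -0.09 without irinotecan replicate 1), with 3 below the controls in every treated tumour (Elmo1, Prex2 and Vav3; 7.89% of all genes tested) and 1 above (Rabgap1l; 6.68%). Rabgap1l, a GTPase-activating protein for Rab proteins, had 1048, 1171 and 1213 normalized counts against 1641, 1242 and 1229. Dock1, the exchange factor that works with Elmo1, did not follow it, with 1389, 1561 and 1312 against 2084, 1309 and 1528 (log2 fold change 0.18, SE 0.19). The median over all protein-coding genes tested was -0.02.

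Of 33 cytoskeletal and scaffold genes, 19 were negative, with a median of -0.04, and -0.12 without irinotecan replicate 1. The giant linkers Macf1 and Dst, which join actin, microtubules and intermediate filaments, had the highest mean counts of the list, a quantity that grows with transcript length. Macf1 had 6479.6, 6555 and 5846 normalized counts in controls and 13057, 6563 and 6936 with irinotecan. Dst had 8646, 7754 and 7214 against 13249, 6945 and 8606. In both, irinotecan replicate 1 was far above every other library and the remaining treated tumours were near the controls. Their fold changes of 0.42 and 0.24 became 0.10 and -0.02 without it. Utrn, the autosomal relative of dystrophin, also had its highest value there, with 2038, 2546 and 2101 against 3209.7, 2130.5 and 2320.03.

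Adhesion and guidance genes were split, with 9 of 19 positive and a median of -0.02 (-0.14 without irinotecan replicate 1). The list includes Sema3a and Slit2, secreted cues that repel growing axons. Sema3a had the highest level per length of all 265 genes, with a control mean of 772 normalized counts per kb of transcript, and Slit2 had 386. Sema3a had 9734, 11012 and 11364 normalized counts in controls and 13532, 11087 and 9212 with irinotecan. Slit2 had 9846, 8755 and 10818 against 16901, 11149.5 and 9724. Both sets of values overlapped between groups, with log2 fold changes of 0.06 (SE 0.17) and 0.32 (SE 0.22). Without irinotecan replicate 1 the fold changes were -0.08 and 0.09.

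Of 41 transcription and chromatin genes, 25 were positive (median 0.11, and -0.03 without irinotecan replicate 1), and 6 were higher and 2 lower in every treated tumour, where 6.68% and 7.89% of all genes tested were. Among the higher ones were Arid1b, a chromatin remodelling subunit, the forkhead factor Foxn3, the nuclear factor I genes Nfia and Nfib, and Tox, a factor of T cell development and exhaustion. The lower ones were Bnc2, a zinc finger protein of fibroblasts and other mesenchyme, and the histone deacetylase Hdac9. Tox, picked out after its values were seen, had 26.2, 26.1 and 6.78 normalized counts in controls and 35.9, 32.7 and 33.4 with irinotecan (log2 fold change 0.97, SE 0.53, limma adjusted p = 0.743). The control spread came from replicate 3. Rere, a nuclear receptor corepressor, had 3136, 3568 and 2587 against 2754, 2746 and 3071, and Foxp1 had 2362, 2224 and 2491 against 2617, 2232 and 2137. Neither moved beyond its spread, with fold changes of -0.11 (SE 0.15) and -0.02 (SE 0.13).

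The other lists were small or balanced. Of 29 channel, transporter and metabolic genes, 16 were positive (median 0.06), of 14 genes of protein turnover and trafficking 8 (0.16), and of 10 matrix and secreted genes 4 (-0.10). Without irinotecan replicate 1 these medians were -0.03, -0.05 and -0.12. In the last list, Ltbp1, which tethers latent TGF-beta to the matrix, had 6881, 5669 and 6219 normalized counts in controls and 8918, 6234 and 5698 with irinotecan. Vps13b, a lipid transfer protein of the Golgi, had 1647, 1819 and 1757 against 3559, 1756 and 1880.2. Each again had irinotecan replicate 1 as its highest library. The 75 genes in no list had a median of 0.06, with 44 positive.

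**Figure D4:**
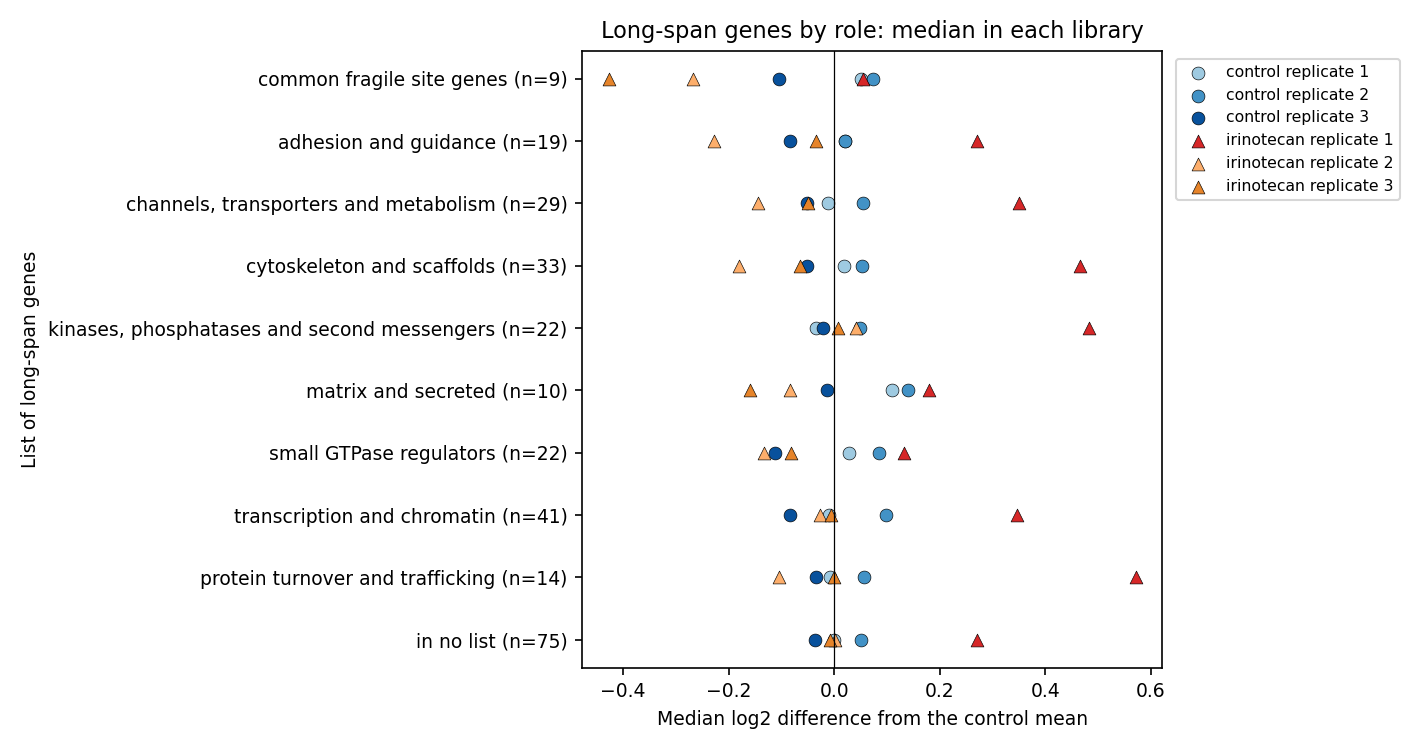
Median log2 difference from the control mean (horizontal axis) in each library for lists of long-span genes by role (vertical axis, with the number of genes); circles are controls and triangles irinotecan tumours. Irinotecan replicate 1 (red) lies to the right in every role list, at 0.13 for small GTPase regulators and 0.57 for protein turnover and trafficking, while irinotecan replicates 2 and 3 lie at -0.27 and -0.43 for the common fragile site genes.

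Genes at common fragile sites, long loci where replication under stress leaves breaks, had the lowest medians of the gene lists in irinotecan replicates 2 and 3. The 9 such genes tested (Ccser1, Dlg2, Dmd, Dpyd, Immp2l, Macrod2, Nbea, Rora and Wwox) had library medians of 0.05, 0.07 and -0.11 in controls and 0.05, -0.27 and -0.43 with irinotecan. Their median fold change was -0.10, and -0.30 without irinotecan replicate 1, with 6 of 9 negative and 0 called. After taking off the bins of mean count and gene length, the median with all libraries was -0.05. All but Nbea and Wwox had a mean count of 10 to 100. The 83 long-span genes of that abundance stood at 0.04, -0.25 and -0.17 in irinotecan replicates 1, 2 and 3. Immp2l, an inner mitochondrial membrane peptidase subunit, was the only one of the 9 with groups apart, at 44.9, 43.9 and 36.8 normalized counts against 24.6, 31.8 and 25.3 (log2 fold change -0.60, SE 0.31, limma adjusted p = 0.743). Wwox, an oxidoreductase with WW domains that spans 913 kb, had 279, 279 and 249.8 against 224, 248 and 322, and overlapped.

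The longest genes show how thin the data are there. Dmd, which encodes dystrophin and is the longest at 2257 kb, had 15.9, 25.1 and 17.4 normalized counts in controls and 19.5, 13.5 and 10.1 with irinotecan (log2 fold change -0.43, SE 0.45). Macrod2, at 1998 kb, which removes ADP-ribose from proteins, had 18.7, 27.2 and 29.0 against 31.8, 20.2 and 26.4. Dlg2, a synaptic scaffold of 1973 kb, had 18.7, 6.27 and 17.4 against 13.3, 5.78 and 5.07. All 3 overlapped between groups. Pde4d, a cAMP phosphodiesterase of 1504 kb, had 44.9, 57.5 and 42.6 against 68.8, 51.0 and 43.6. Magi2, a junction scaffold of 1478 kb, had 72.0, 80.5 and 76.5 against 81.1, 79.9 and 56.8. Of the 6 longest genes, Csmd3 was the one whose groups did not overlap, and it was higher.

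The genes next to the limits of the rule were these. Pam, which amidates peptide hormones, Stk3, a Hippo pathway kinase, and Plce1, a phospholipase C, were just inside the span limit at 300532, 303425 and 303921 bases, with log2 fold changes of 0.04, -0.08 and 0.24. Jazf1, Akap13 and AW554918 were just outside at 299834, 299075 and 298322 bases, with 0.33, 0.51 and 0.05, and Akap13 was higher in every treated tumour. Ptprn2 and Plxna4 were just inside the mean limit at 10.6 normalized counts each, and Kirrel3 and Dach1 were just outside at 9.87 and 9.74.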

How the data were processed

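Gene expression was measured by bulk RNA-seq in 6 libraries of CT26 tumours, grouped by the treatment label. The submitters' processing notes name DESeq2 1.20.0, featureCounts 1.5.0-p3, HISAT2 2.0.5, fastp and CASAVA and the build GRCm38 (mm10), without a role for any. The annotation release and the strand setting were not given in the sources used here. In the table that the authors deposited, library columns hold a normalized signal, read counts divided by 1 factor per library, and 100% of them are a whole number of times the value of 1 read (tolerance 1e-06), so whole reads were recovered. It also holds the authors' log2 fold changes and p-values, per the file headers.

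Normalized values, not counts, were deposited, so limma 3.58.1 (R 4.3.3; empirical Bayes with a mean-variance trend, group only) was run on log2(normalized count + 1), which understates changes of low genes. The 14639 genes with a mean of at least 10 were tested together, p-values were adjusted by Benjamini-Hochberg, and calls were made at 0.05. Bin edges were 10, 30, 100, 300, 1000 and 3000 for mean count, 2000, 4000, 6000, 8000 and 12000 bases for gene length, and 42, 46, 50, 54 and 58% for GC content (GENCODE M21 transcripts). Bins needed 10 shorter-span genes. Coordinates equalled M21 for 258 of the 265 genes.

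The genes, lists, rule for named genes and tests were chosen with earlier results of these data known. Named genes were the 8 with the smallest limma p in each direction among those whose groups did not overlap, the 6 longest, the 2 most abundant of each role list, those next to the thresholds, and a fixed panel of which Auts2, with a mean of 6.77, was under the mean threshold and Fhit was not analysed here. One gene of the transcription list is not reported here. Promoters were matched by gene for 205 of 265. Alternatives were other pseudocounts, filters, thresholds and bins, quantile normalization, library weights, a replicate block, each library left out, and DESeq2 1.42.0, edgeR 4.0.16 and limma-voom on recovered reads. The main limma fit and the binning were first tested on simulated data, and the DESeq2, edgeR, limma-voom, weighted and blocked fits were not. Depth (13940650 to 15656894 reads) bounds counting error only, as reads carry no molecular identifiers.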

Additional observations from a re-analysis of the deposited data

How the results depend on the processing

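The median fold change of the long-span genes stayed between -0.06 and 0.11 over 24 alternatives, and between -0.04 and 0.11 when each library was left out in turn, where its sign followed irinotecan replicate 1. The binned difference lay between -0.06 and 0.02 over 28 alternatives, between -0.05 and 0.02 over left-out libraries, and at 0.0775 with bins of mean count only, which do not match transcript length. The number of negative long-span genes ran from 99 to 157 over left-out libraries. It was 636 of 1578 genes from 100000 bases upward, 240 of 549 from 200000, 44 of 89 from 500000, and 66 of 182 with a mean of at least 100, as other genes were counted. The median of the longest class minus that of the shortest was 0.19, and -0.06 to 0.38 over left-out libraries. Lower genes at an unadjusted p under 0.05 numbered 4 to 28, and higher ones 5 to 18, over left-out libraries; with estimated library weights, which gave irinotecan replicate 1 a weight of 0.127 against 1.19 to 1.88, they numbered 35 and 12.

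Over all genes, calls numbered 52 with library weights (1 long-span, Ptprm), 52 with DESeq2, 164 with DESeq2 without irinotecan replicate 1 (4 long-span; added after seeing the data), and 0 to 2 over left-out libraries; the cause was not tested. Ptprm stood at -1.11 with library weights, and at -1.10 in DESeq2 without irinotecan replicate 1, where Exoc4 stood at 0.52 and Csmd3 at 2.70. Of 49 named genes with values, 29 kept their sign in every alternative and 20 turned in at least 1. Replicate numbers did not pair the libraries (correlations of deviations -0.114, -0.00869 and -0.213). With the replicate number as a block the median was 0.06, 0 genes were called, and 5 long-span genes were lower and 8 higher at an unadjusted p under 0.05. Depth limits the scarce genes: 83 of the 265 had a mean count of 10 to 100.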
